A study of Mus musculus with 64 samples.

Results

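The first 3 h of the dark phase were described by setting ventricles collected at zeitgeber time (ZT) 15 against ventricles collected at ZT12. Libraries were chosen by the time in their titles and not by any measured value, which gave 16 of the 64 libraries of the study, 8 at each time. The animals were male C57BL/6 mice of 2 genotypes, with 4 biological replicates of each genotype at each time according to the labels. CEK mice lacked E4BP4, the product of Nfil3, in cardiomyocytes, and CON mice were littermate controls. The sources used here do not give the Cre line, the alleles of either genotype, the age of the mice or the light schedule. Zeitgeber time counts hours from lights-on, and ZT12 is by convention the time of lights-off. Genotype entered the fit as a block, so that each step from ZT12 to ZT15 is the average over both genotypes.

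Mice are nocturnal, and lights-off is when they become active, begin to feed and raise their body temperature. The heart carries its own circadian clock, in which CLOCK and BMAL1 (Arntl) activate the Period and Cryptochrome genes, the REV-ERB genes Nr1d1 and Nr1d2 and the PAR bZIP genes Dbp, Tef and Hlf, whose products act on their own promoters or further genes in turn. Hormones of the feeding and activity cycle, among them glucocorticoids and insulin, and body temperature also set the level of many cardiac transcripts.

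Nfil3 was measured first, since it checks the genotype labels. In CON hearts Nfil3 ran from 7.64 to 11.2 CPM (counts scaled to a common library size, TMM counts per M) at ZT12 and from 14.99 to 19.6 CPM at ZT15. In CEK hearts it ran from 0.497 to 1.31 CPM at ZT12 and from 1.03 to 1.49 CPM at ZT15, so that every CEK library lay below every CON library. Over both genotypes Nfil3 rose by 0.77 ± 0.13 (log2 fold change ± SE; adjusted p = 0.00156). The rise was 0.86 ± 0.15 in CON (adjusted p = 0.0123) and 0.57 ± 0.23 in CEK (adjusted p = 0.134), and the difference of these steps had an adjusted p of 0.941.

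The 16 libraries held 17.7 to 32.2 M counts on genes, of which 22.7 to 30.6% fell on mitochondrial genes. Markers of ventricular cardiomyocytes had a mean of 11.4 to 11.8 log2 CPM in every library. The mean of atrial markers, the atrial score, ran from 4.26 in CON ZT12 replicate 1 to 7.94 in CON ZT12 replicate 3. Means of different gene lists do not check the tissue label, but the libraries differed far more in atrial markers. With the atrial score as a covariate 837 genes rose and 1275 fell, against 674 and 1017 in the main fit described below. CEK ZT12 replicate 1 and CON ZT15 replicate 1 stood apart, with 12.6% and 6.53% of reads in no feature and 12.5% and 5.92% ambiguous reads, against group medians of 3.20 to 3.62%. The libraries also differed in how their counts depended on gene length. The slope of log2 CPM on log2 exon length ran from -0.05 to 0.12 at ZT12 (median 0.03) and from -0.08 to 0.05 at ZT15 (median -0.05). The difference in mean slope had a p of 0.0163 in an exact permutation test within genotype (two-sided, 4900 arrangements), or 0.114 adjusted over 7 library measures. Counts of calls are therefore also given with an offset for exon length and GC content in each library. In whole ventricles, fewer cells of a type and less RNA per cell cannot be told apart.

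Of 15259 tested genes, 674 rose (4.42%) and 1017 fell (6.66%) by edgeR's quasi-likelihood test at an adjusted p under 0.05. Most steps were modest, with a median size of 0.32 on the log2 scale among called genes, and 11 rises and 45 falls reached 1 on the log2 scale. The values of the 8 libraries at ZT12 and the 8 at ZT15 did not overlap for 78 of the rises and 73 of the falls. This was counted only among called genes, which were picked on the same values, so it adds no support to the calls. The share over all tested genes was not counted. With the exon length and GC offset the split turned to 879 rises (5.78%) and 781 falls (5.13%), and 450 of the rises and 630 of the falls kept their call. Without the 2 libraries that stood apart there were 1027 rises and 1407 falls. Genes that rose had a median exon length of 2935 bases and genes that fell 6886, against 4190 for all tested genes. With genes split by exon length into 5 equal bins, the median step went from 0.15 for the shortest genes to -0.14 for the longest, and the share called lower from 1.70 to 15.2%. With the offset these medians lay between -0.00 and 0.01, which the offset is built to give, as it takes out each library's trend on exon length. The part of gene length in the calls of single genes was not tested beyond the offset.

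**Figure D1:**
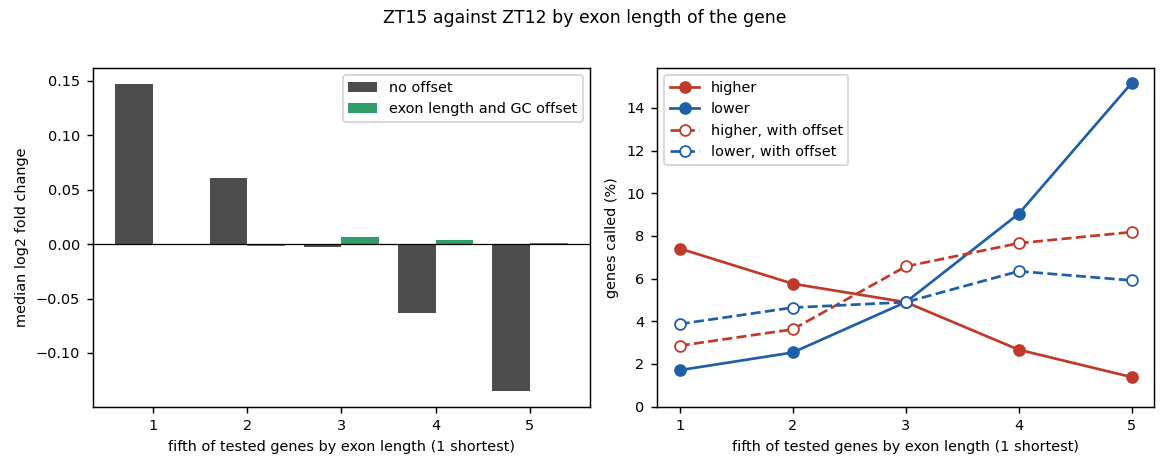
Step from ZT12 to ZT15 by exon length, with tested genes split into 5 equal bins from shortest (1) to longest (5). Left, median log2 fold change without and with the exon length and GC offset. Right, percent of genes called higher or lower in each bin. Without the offset the median fell from 0.15 to -0.14 across the bins. With it the medians lay within 0.01 of 0, which the offset is built to give.

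Period, REV-ERB and PAR bZIP genes fell together in the first 3 h of dark, while Arntl, Cry1 and Nfil3 rose. Of the 24 genes of the core clock list, 6 rose (25%) and 10 fell (41.7%), where 4.42% of all tested genes rose and 6.66% fell. The list's median was -0.18 on the log2 scale against -0.01 for all tested genes. With the offset 7 rose and 9 fell, and Clock joined the rises (0.26) while Cry2 left the falls (-0.10).

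Per1, a repressor of CLOCK and BMAL1 that also responds directly to glucocorticoids and cyclic AMP, fell by about as much as Nr1d1. Per1 (ENSMUSG00000020893.17, chr11:69095217-69109960, plus strand, GRCm38) ran from 74.5 to 102 CPM at ZT12 (median 85.3) and from 30.5 to 49.2 CPM at ZT15 (median 37.4). The times did not overlap. Per1 fell by 1.17 ± 0.10 (adjusted p = 3.13e-06), by 1.18 in CON and 1.16 in CEK. Over the 8 times of day its median was highest at ZT12, with 87.3 CPM, so that the fall began at the peak. Per3 fell by 0.53 ± 0.07 (adjusted p = 0.000133), from a median of 60.2 to 41.9 CPM with no overlap. Per2 fell by 0.33 ± 0.07 (adjusted p = 0.0111), from 46.2 to 34.8 CPM, and the times overlapped. Of the 3 Period genes, Per1 thus had the largest step and Per2 the smallest.

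Nr1d1 encodes REV-ERB alpha, a repressor of Arntl and Nfil3. Nr1d1 (ENSMUSG00000020889.11, chr11:98767932-98775333, minus strand) ran from 40.4 to 62.7 CPM at ZT12 (median 56.5) and from 18.3 to 32.9 CPM at ZT15 (median 24.6). The times did not overlap, and Nr1d1 fell by 1.16 ± 0.08 (adjusted p = 5.39e-07), the smallest p of the clock list. It overlaps Thra on the opposite strand, and the sources used here do not say whether the counts used strand. Its paralog Nr1d2 fell by 0.54 ± 0.07 (adjusted p = 0.000286). Dbp, an activator at D-box elements, ran from 65.6 to 103 CPM at ZT12 and from 34.1 to 64.8 CPM at ZT15. The times did not overlap, though CON ZT15 replicate 2 lay just under the lowest ZT12 library, and Dbp fell by 1.09 ± 0.11 (adjusted p = 1.05e-05). Dbp overlaps Sphk2 on the opposite strand. The other PAR bZIP activators fell less, Hlf by 0.50 ± 0.07 (adjusted p = 0.000686) and Tef by 0.29 ± 0.04 (adjusted p = 0.000614). Ciart, which encodes a repressor of CLOCK and BMAL1, fell by 1.09 ± 0.14 (adjusted p = 0.000128), from a median of 19.7 to 9.39 CPM with no overlap.

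Arntl was the clock gene with the largest rise. Arntl (ENSMUSG00000055116.8, chr7:113207465-113314126, plus strand) ran from 0.734 to 2.80 CPM at ZT12 (median 1.16) and from 1.95 to 3.78 CPM at ZT15 (median 3.25). The overlap came from CEK replicate 1, high at ZT12, and CON replicate 2, low at ZT15. Arntl rose by 1.29 ± 0.20 (adjusted p = 0.000846), from the lowest median of its day course, 1.20 CPM at ZT12 in the scaling of all 64 libraries. Cry1 rose by 0.32 ± 0.05 (adjusted p = 0.00125) and Timeless by 0.30 ± 0.06 (adjusted p = 0.00799). For Clock (0.09, adjusted p = 0.476), Npas2 (-0.25, adjusted p = 0.176), Bhlhe40 (-0.21, adjusted p = 0.125) and Rora (-0.08, adjusted p = 0.312) the step did not pass the threshold. Csnk1e passed it at 0.15 ± 0.04 (adjusted p = 0.0354), and 11 of the 16 single-library omissions ended that call. Csnk1e and Timeless, and below Pfkfb3, Ucp3 and Gpam, overlap gene models on the opposite strand.

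**Figure D2:**
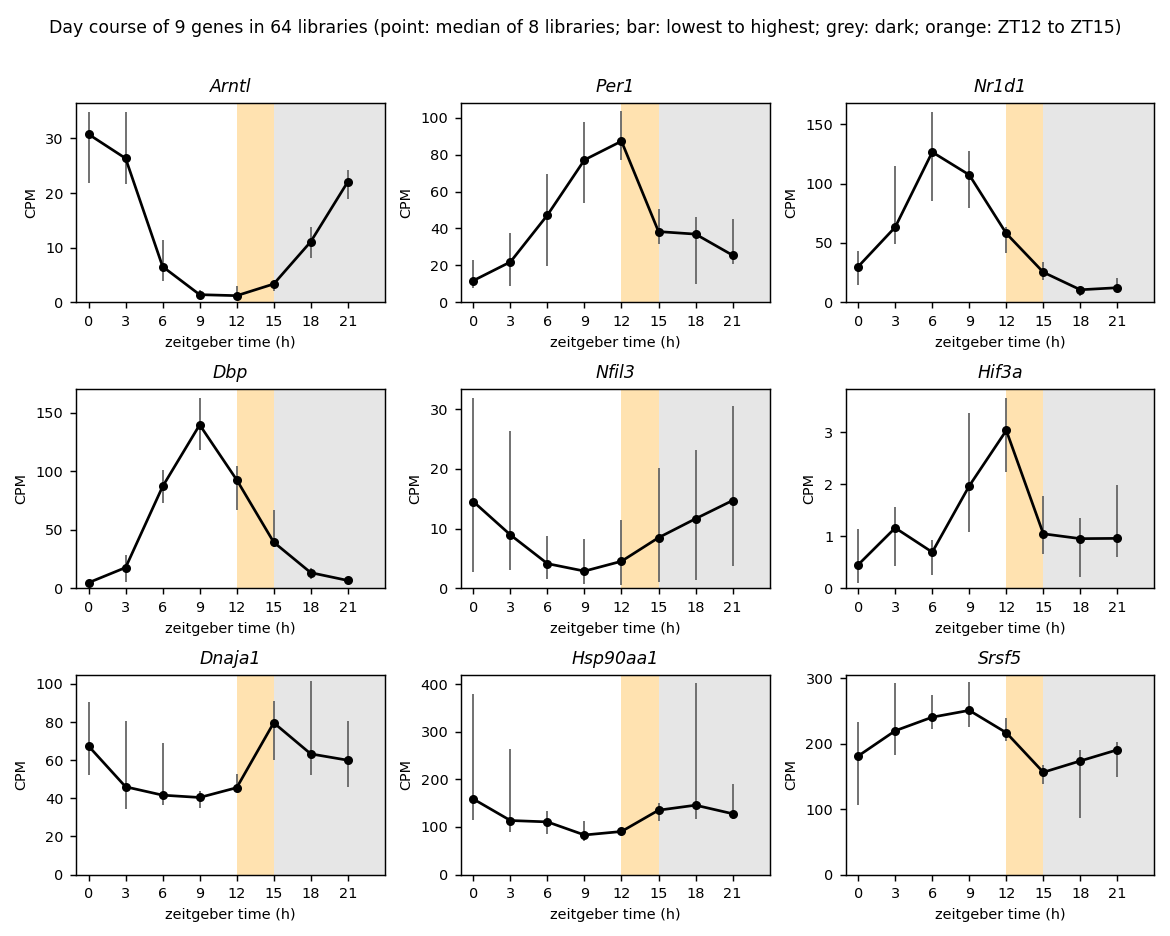
Day course of 9 genes over 8 zeitgeber times (x axis, hours) in CPM (y axis), all 64 libraries. Points are medians of 8 libraries (both genotypes), bars run from the lowest to the highest library, grey marks the dark phase and orange the step from ZT12 to ZT15. Per1 and Hif3a had their highest median at ZT12, and Arntl its lowest.

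Promoter windows of Ciart and Nfil3 are shown because they hold matches to the E-box CACGTG, the site of CLOCK and BMAL1, and to the ROR element (TAGGTCA or TGGGTCA), the site of ROR and REV-ERB proteins. Windows were taken from RefSeq on GRCm38.p6 and run from 250 bases before to 50 after the start, and both strands were searched, with matches in capitals. Ciart fell and Nfil3 rose. Ciart held 3 E-boxes (chr3:95882179-95882478, minus strand) and Nfil3 held 1 ROR element on the reverse strand (chr13:52980990-52981289, minus strand).
Ciart: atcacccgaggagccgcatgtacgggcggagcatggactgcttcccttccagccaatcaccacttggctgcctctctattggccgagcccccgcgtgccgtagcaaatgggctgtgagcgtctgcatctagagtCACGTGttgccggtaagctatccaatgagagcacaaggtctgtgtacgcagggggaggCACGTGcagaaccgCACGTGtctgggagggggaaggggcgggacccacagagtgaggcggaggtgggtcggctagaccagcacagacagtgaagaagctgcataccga
Nfil3: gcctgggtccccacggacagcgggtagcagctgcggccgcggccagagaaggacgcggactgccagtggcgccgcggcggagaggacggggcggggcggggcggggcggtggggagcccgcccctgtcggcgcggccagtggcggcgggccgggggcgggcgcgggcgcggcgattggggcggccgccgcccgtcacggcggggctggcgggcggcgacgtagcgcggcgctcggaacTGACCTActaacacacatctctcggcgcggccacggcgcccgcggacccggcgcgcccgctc
The E-box was in 1108 of 11116 windows of tested genes (9.97%) and in 5 of 19 core clock windows (26.3%), those of Per1, Cry1, Bhlhe41, Ciart and Tef. The ROR element was in 536 of the 11116 windows (4.82%) and in 1 of the 19 core clock windows, that of Nfil3. A match of letters is a description of the window only.

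Transcripts of 21 of 41 heat shock proteins and their partners rose at dark onset. These chaperones hold other proteins folded, and their genes are classical targets of the heat shock factor HSF1. The rises were 51.2% of the list, where 4.42% of all tested genes rose and 6.66% fell. Of the list's 41 genes 0 fell, with a median of 0.21 on the log2 scale against -0.01 for all tested genes, and 37 of the 41 lay above 0. With the exon length and GC offset 20 rose and 0 fell, and without the 2 libraries that stood apart 21 rose and 0 fell.

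Dnaja1, which encodes an HSP40 co-chaperone of HSP70, had a smaller p than any other list member but Hsp90aa1. Dnaja1 (ENSMUSG00000028410.13, chr4:40722150-40737149, plus strand) ran from 42.05 to 51.2 CPM at ZT12 (median 44.5) and from 59.1 to 88.3 CPM at ZT15 (median 77.7). Every library at ZT15 was above every library at ZT12, and Dnaja1 rose by 0.72 ± 0.08 (adjusted p = 5.15e-05). It overlaps Smu1 and Gm6297 on the opposite strand. Hsp90aa1, the inducible cytosolic HSP90, ran from 85.2 to 93.7 CPM at ZT12 and from 110 to 146 CPM at ZT15, without overlap. Hsp90aa1 (chr12:110690605-110702728, minus strand) rose by 0.55 ± 0.05 (adjusted p = 1.29e-05), by 0.53 in CON and 0.57 in CEK. The abundant constitutive Hspa8 ran from 723 to 889 CPM at ZT12 and from 1072 to 1214 CPM at ZT15 and rose by 0.44 ± 0.05 (adjusted p = 9.9e-05). The small heat shock gene Hspb1 rose by 0.55 ± 0.09 (adjusted p = 0.00174), from a median of 100.1 to 138 CPM, also without overlap.

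The inducible HSP70 genes had the largest steps and the lowest levels of the list's leading members. Hspa1b ran from 1.11 to 2.59 CPM at ZT12 (median 1.82) and from 1.77 to 8.08 CPM at ZT15 (median 4.16). At ZT15 the libraries were spread, with CEK replicate 3 and CON replicates 1 and 3 high, and the times overlapped. Hspa1b rose by 1.29 ± 0.27 (adjusted p = 0.00841) and its near-identical copy Hspa1a by 1.27 ± 0.26 (adjusted p = 0.0068), and reads may be split between them. Among the co-chaperones, Dnajb1 rose by 0.56 ± 0.13 (adjusted p = 0.0166), Hsph1 by 0.46 ± 0.08 (adjusted p = 0.00343) and Hspe1, the mitochondrial HSP10, by 0.41 ± 0.12 (adjusted p = 0.0332). The HSP60 gene Hspd1 (0.13), the mitochondrial HSP70 Hspa9 (0.02) and the factors Hsf1 (0.11) and Hsf2 (-0.04) did not pass the threshold.

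**Figure D3:**
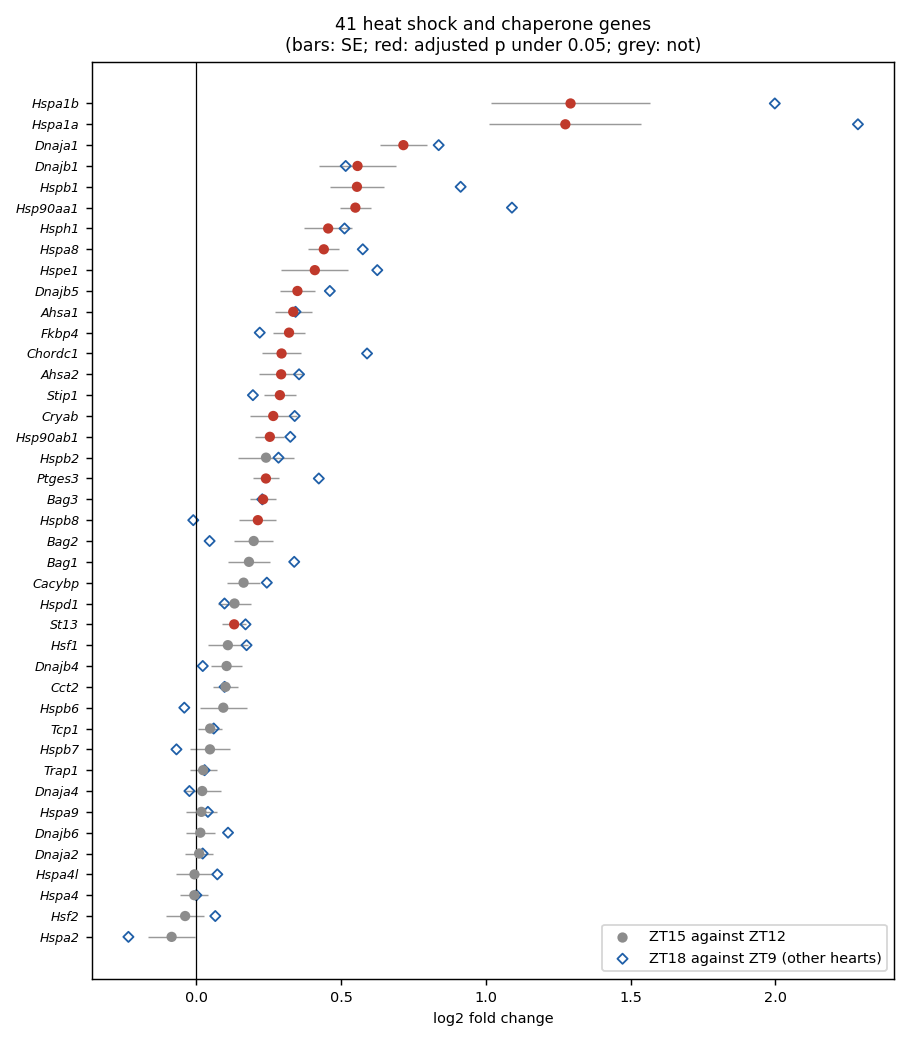
Log2 fold change (x axis) of the 41 genes of the heat shock list. Filled points are ZT15 against ZT12 with SE bars, red where the adjusted p was under 0.05 and grey where not. Open diamonds are ZT18 against ZT9 in other hearts. The 21 called genes all lay above 0.

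Promoter windows of Hsph1, Hspe1 and Chordc1 are shown. Of the 16 list members that rose and had a window, these held a heat shock element, the site of HSF1. The other risen members, Hspa8 and Hsp90aa1 among them, had no window and were not searched. The motif searched was the units GAA, TTC and GAA in a row with any 2 bases between neighbours, on both strands, and matches, which may overlap each other, are in capitals. The windows are chr5:149636287-149636586 (minus strand) for Hsph1, chr1:55087898-55088197 (plus strand) for Hspe1 and chr9:18292017-18292316 (plus strand) for Chordc1.
Hsph1: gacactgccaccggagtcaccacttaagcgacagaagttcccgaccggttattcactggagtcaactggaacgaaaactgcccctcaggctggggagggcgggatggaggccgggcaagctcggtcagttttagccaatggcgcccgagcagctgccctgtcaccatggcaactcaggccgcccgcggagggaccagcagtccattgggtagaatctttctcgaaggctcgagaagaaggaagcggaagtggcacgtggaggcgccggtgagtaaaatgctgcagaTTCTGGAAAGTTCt
Hspe1: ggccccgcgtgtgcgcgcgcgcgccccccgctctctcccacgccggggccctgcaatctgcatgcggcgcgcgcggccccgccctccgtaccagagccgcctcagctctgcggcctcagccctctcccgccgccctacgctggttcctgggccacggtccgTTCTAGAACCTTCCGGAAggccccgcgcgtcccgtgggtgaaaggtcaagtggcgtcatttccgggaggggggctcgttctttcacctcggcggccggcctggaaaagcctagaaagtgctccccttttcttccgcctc
Chordc1: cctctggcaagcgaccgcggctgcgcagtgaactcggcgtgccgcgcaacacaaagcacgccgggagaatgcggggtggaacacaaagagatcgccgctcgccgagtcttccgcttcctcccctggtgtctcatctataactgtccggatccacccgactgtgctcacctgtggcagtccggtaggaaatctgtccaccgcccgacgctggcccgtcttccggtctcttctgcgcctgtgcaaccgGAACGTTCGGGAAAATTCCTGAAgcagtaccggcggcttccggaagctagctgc
Of the 33 list members with a window, 4 held the motif (12.1%), against 48 of 11116 windows of tested genes (0.432%). They were 3 of the 16 members called higher, with 1 match in Hsph1, 2 in Hspe1 and 3 in Chordc1, and Dnajb6, which had a step of 0.01.

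Of the 10 genes of the cold-inducible list 0 rose and 3 fell (30%), with a median of -0.09, where 4.42% of all tested genes rose and 6.66% fell. With the offset 1 rose and 3 fell and the median was 0.02. In ZT18 against ZT9 2 were higher and 3 lower. Srsf5, a splicing factor, ran from 197 to 237 CPM at ZT12 (median 213) and from 135 to 163 CPM at ZT15 (median 153). Every ZT15 library was lower than every ZT12 library, and Srsf5 fell by 0.51 ± 0.05 (adjusted p = 5.81e-06). Cirbp, the cold-inducible RNA-binding protein, fell by 0.41 ± 0.11 (adjusted p = 0.0262), and Hnrnpdl by 0.20 ± 0.05 (adjusted p = 0.0129), both with overlap. Without CEK ZT15 replicate 3 or CON ZT12 replicate 4 the call of Cirbp was lost.

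Among glucocorticoid-responsive genes more fell than rose after 3 h of dark. Glucocorticoids activate these genes through their receptor, and in mice the hormone peaks around lights-off. Of the 27 genes of the list, 1 rose (3.70%) and 9 fell (33.3%), where 4.42% of all tested genes rose and 6.66% fell. The list's median was -0.28 on the log2 scale, and 1 rose and 12 fell with the offset or without the 2 libraries that stood apart. Per1, described above, is also a member. Hif3a, a hypoxia-inducible factor subunit that glucocorticoids induce, had the largest fall among genes with a mean log2 CPM of 1 or more and one sign in both genotypes. Hif3a (ENSMUSG00000004328.15, chr7:17031507-17062427, minus strand) ran from 2.179 to 3.52 CPM at ZT12 (median 2.94) and from 0.649 to 1.72 CPM at ZT15 (median 1.02). The times did not overlap, and Hif3a fell by 1.51 ± 0.17 (adjusted p = 3.69e-05). Zbtb16, a zinc-finger repressor, ran from 40.7 to 134 CPM at ZT12 and from 23.7 to 88.0 CPM at ZT15 and fell by 0.97 ± 0.21 (adjusted p = 0.00837). Fam107a fell by 0.82 ± 0.16 (adjusted p = 0.00497) and Map3k6 by 0.81 ± 0.12 (adjusted p = 0.000635). The transcription factors Klf9 and Klf15 fell by 0.41 ± 0.06 (adjusted p = 0.000284) and 0.40 ± 0.07 (adjusted p = 0.00176). Other members with textbook glucocorticoid response did not pass the threshold, namely Fkbp5 (0.15, adjusted p = 0.477), Tsc22d3 (-0.15, adjusted p = 0.21) and Dusp1 (-0.17, adjusted p = 0.103), though Dusp1 passed with the offset (-0.22, adjusted p = 0.034). The single rise was Cdkn1a, a cell cycle inhibitor (0.41 ± 0.13, adjusted p = 0.0448).

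Genes of fasting and FOXO control, which insulin lowers, were also called lower more often than higher, but fewer were called with the offset. Of the 34 genes of the FOXO and insulin list 0 rose and 8 fell (23.5%), where 4.42% of all tested genes rose and 6.66% fell. But with the offset 1 rose and 3 fell. The list's median was -0.08, or -0.01 with the offset. Klf15 and Cited2, a transcriptional co-regulator (-0.30, adjusted p = 0.0377), remained called lower with the offset, whereas Pik3r1 (-0.21, adjusted p = 0.0204) and Ccng2 (-0.26, adjusted p = 0.0319) did not. Arrdc2, an arrestin-domain gene of no list, ran from 16.9 to 34.5 CPM at ZT12 (median 22.9) and from 4.86 to 14.9 CPM at ZT15 (median 10.2). The times did not overlap, and Arrdc2 fell by 1.29 ± 0.19 (adjusted p = 0.00065). Of the 26 genes of muscle atrophy and autophagy, 2 rose (7.69%) and 6 fell (23.1%), or 2 rose and 4 fell with the offset. Fbxo32, the muscle ubiquitin ligase atrogin-1, ran from 150 to 202 CPM at ZT12 and from 109 to 145 CPM at ZT15, without overlap, and fell by 0.39 ± 0.06 (adjusted p = 0.000916). Trim63, its partner MuRF1, had a step of -0.10 that passed only with the offset (-0.17, adjusted p = 0.049).

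Of 48 genes of glucose uptake, glycolysis and glycogen, 7 rose (14.6%) and 2 fell (4.17%), with a median of 0.04. Over all tested genes 4.42% rose and 6.66% fell. Without the 2 libraries that stood apart 11 rose and 7 fell, where 1027 of all 15402 tested genes rose and 1407 fell. With all libraries the 7 rises were Ppp1r3b and Ppp1r3c and the glycolysis genes Pgam1, Pgam2, Eno3, Pgk1 and Pkm. Ppp1r3c and Ppp1r3b encode subunits that bring protein phosphatase 1 to glycogen. Ppp1r3c (chr19:36731731-36736653, minus strand) ran from 97.6 to 116 CPM at ZT12 and from 127 to 171 CPM at ZT15. No library at ZT12 reached those at ZT15, and Ppp1r3c rose by 0.53 ± 0.06 (adjusted p = 2.53e-05). Ppp1r3b rose by 0.68 ± 0.12 (adjusted p = 0.00298), from a median of 35.1 to 54.6 CPM, with overlap. Pfkfb3, which makes the activator of phosphofructokinase, fell by 0.72 ± 0.11 (adjusted p = 0.000686), from a median of 10.3 to 6.67 CPM with no overlap. The glucose transporter genes differed, as Slc2a1 fell by 0.22 ± 0.05 (adjusted p = 0.017) and Slc2a4 had a step of 0.04 that did not pass. Of the glycolysis genes, Pgam1 (0.53 ± 0.08, adjusted p = 0.000808) and Pkm kept the call with the offset.

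Fat metabolism gave few calls outside the cholesterol list. Of 30 PPAR alpha and fasting genes 2 rose (6.67%) and 3 fell (10%), and of 31 genes of fatty acid oxidation 0 rose and 1 fell (3.23%). Of 34 genes of lipogenesis and triglyceride turnover 2 rose (5.88%) and 3 fell (8.82%). Of 29 cholesterol genes 1 rose (3.45%) and 5 fell (17.2%), or 1 rose and 3 fell with the offset. Over all tested genes 4.42% rose and 6.66% fell. Cpt1a, which lets fatty acids into mitochondria, ran from 46.5 to 65.3 CPM at ZT12 and from 33.9 to 44.97 CPM at ZT15. All 8 libraries at ZT15 were below all 8 at ZT12, and Cpt1a fell by 0.49 ± 0.07 (adjusted p = 0.000686). Ucp3, a mitochondrial carrier of fasting and fat oxidation, fell by 0.57 ± 0.15 (adjusted p = 0.0262), and leaving out CON ZT15 replicate 2, CEK ZT15 replicate 3 or CON ZT12 replicate 4 ended that call. G0s2, an inhibitor of the triglyceride lipase ATGL, rose by 0.66 ± 0.11 (adjusted p = 0.00179), from a median of 34.9 to 59.2 CPM. Pdk4, a fasting marker, had a step of -0.37 that did not pass (adjusted p = 0.236). Of the cholesterol genes that fell, Dhcr7 (-0.30, adjusted p = 0.0219) kept its call with the offset and Lss (-0.45, adjusted p = 0.0307) did not.

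**Figure D4:**
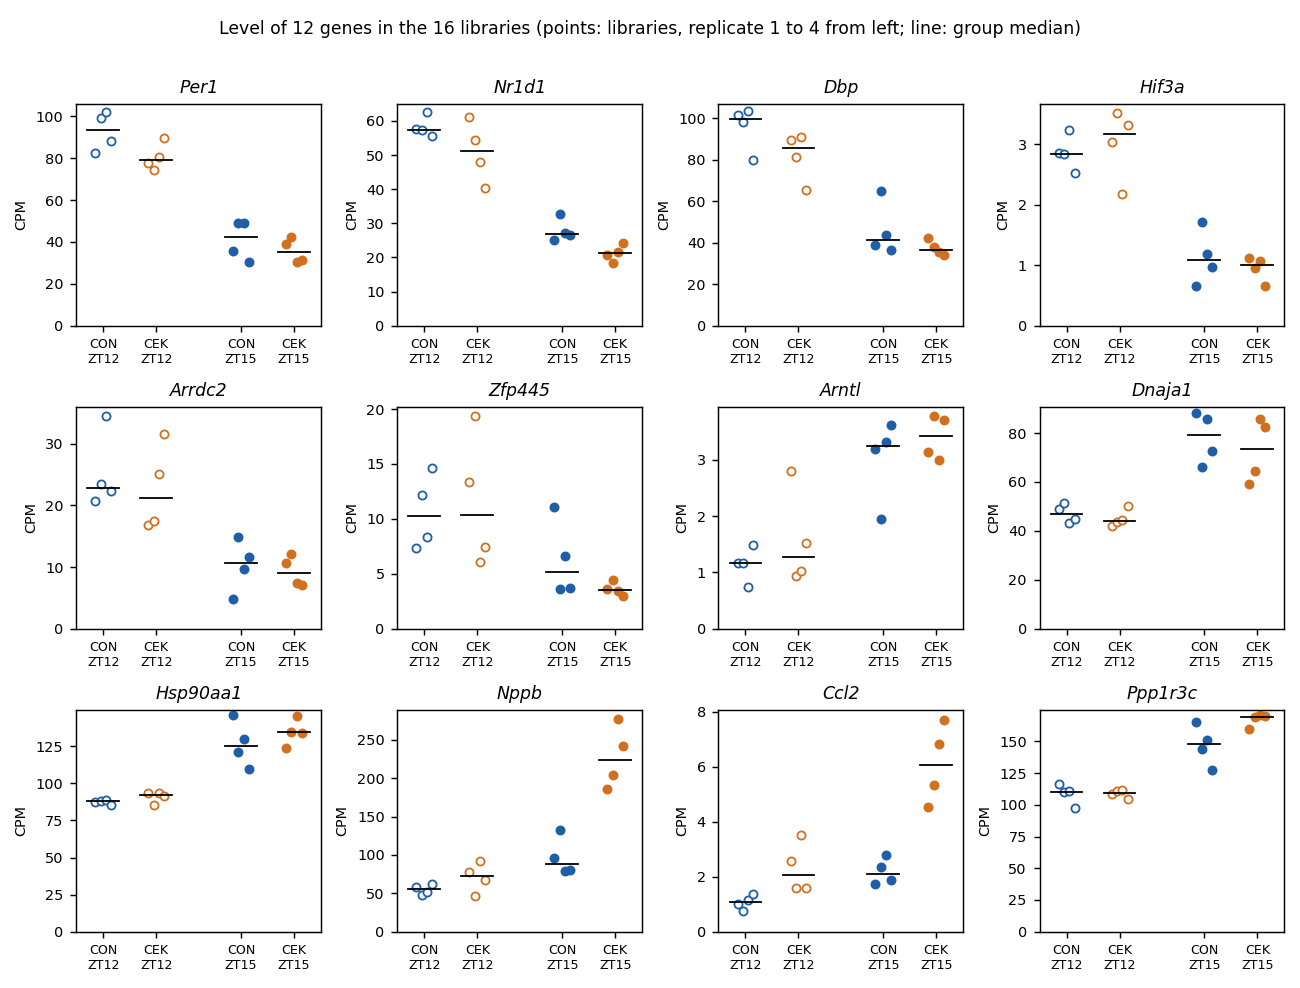
CPM of 12 genes (y axis, from 0) in each of the 16 libraries, by genotype and time. Open points are ZT12, filled points ZT15, blue CON and orange CEK, and lines are group medians. Per1, Nr1d1, Dbp, Hif3a and Arrdc2 were lower in every ZT15 library than in any ZT12 library, and Dnaja1, Hsp90aa1 and Ppp1r3c higher, whereas Zfp445, Arntl, Nppb and Ccl2 overlapped.

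Nppb, which encodes the natriuretic peptide BNP of strained cardiomyocytes, and the monocyte chemokine genes Ccl2 and Ccl7 also rose. In CON hearts Nppb ran from 48.3 to 62.4 CPM at ZT12 and from 79.4 to 133 CPM at ZT15. In CEK hearts Nppb ran from 46.8 to 91.6 CPM at ZT12 and from 186 to 277 CPM at ZT15, so that the times did not overlap within either genotype. Nppb (ENSMUSG00000029019.8, chr4:147985788-147987205, plus strand) rose by 1.25 ± 0.17 (adjusted p = 0.000275), by 0.82 ± 0.19 in CON (adjusted p = 0.066) and 1.68 ± 0.19 in CEK (adjusted p = 0.00049). The difference between those steps was 0.87 ± 0.27 with an unadjusted p of 0.00443 and an adjusted p of 0.941, so it did not pass. Ccl2 ran from 0.759 to 3.54 CPM at ZT12 (median 1.496) and from 1.72 to 7.72 CPM at ZT15 (median 3.65). The 4 CEK libraries at ZT15 were the highest for Ccl2, and it rose by 1.24 ± 0.19 (adjusted p = 0.000808). Ccl7 rose by 1.02 ± 0.21 (adjusted p = 0.00659). Ccl2 overlaps the gene model Gm17268 on the opposite strand.

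Of the 32 genes of the inflammation list, 7 rose (21.9%) and 0 fell, where 4.42% of all tested genes rose and 6.66% fell. With the offset 7 rose and 1 fell, 4 of the rises being the same genes (Ccl2, Ccl7, Icam1 and Isg15). Without the 2 libraries that stood apart 8 rose and 0 fell. Besides the chemokines the rises were Il1b, at under 2 CPM in every library (1.40 ± 0.42, adjusted p = 0.0395), Isg15, Cd14, Icam1 and Gbp2. Some markers of macrophages moved with them. Of 12 macrophage markers, 6 rose (50%) and 0 fell, namely Lyz2, Cd14, C1qa, C1qb, C1qc and Fcgr1. The list's median was 0.39, and with the offset 3 rose, the C1q genes. C1qa ran from 27.8 to 41.6 CPM at ZT12 and from 33.03 to 64.5 CPM at ZT15 and rose by 0.57 ± 0.11 (adjusted p = 0.00599). The mean log2 CPM of the macrophage list ran from 3.81 to 4.32 at ZT12 (median 3.94) and from 3.93 to 4.71 at ZT15 (median 4.28). Csf1r (0.13), Cd68 (0.25), Adgre1 (0.38) and Ccr2 (0.12) did not pass the threshold, and neither did Mrc1 (-0.07) or Cd163 (-0.28), which lay below 0. DESeq2 called 6 markers higher and 1 lower. The part of macrophage content in the rise of Ccl2, Ccl7 and Il1b was not tested.

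Other cell type lists gave few calls, where 4.42% of all tested genes rose and 6.66% fell. Of 12 endothelial markers 2 rose and 0 fell, of 12 fibroblast markers 1 rose and 0 fell, of 12 smooth muscle and pericyte markers 1 rose and 2 fell, and of 12 ventricular markers 1 rose and 0 fell. No atrial (11), red blood cell (9), epicardial (11), Schwann cell and neuron (7), lymphocyte (5) or neutrophil (3) marker tested was called by edgeR, with 2 of these 46 at an unadjusted p under 0.05 and 1 called by DESeq2. Red blood cell markers lay above 0 in 9 of 9 cases (median 0.26). Without the 2 libraries that stood apart 4 ventricular markers rose and 1 fell, and 8 of the 12 had an unadjusted p under 0.05 with all libraries. Of 9 adipocyte markers, 8 lay below 0 (median -0.49) and only Pck1 was called lower (-1.56 ± 0.35, adjusted p = 0.0117), and adipocyte markers had a mean of 0.15 to 2.03 log2 CPM at ZT12 and -0.68 to 0.95 at ZT15. Cldn5, a tight junction gene of endothelium, ran from 10.1 to 13.95 CPM at ZT12 and from 16.1 to 27.1 CPM at ZT15. With no overlap between the times, Cldn5 rose by 0.82 ± 0.10 (adjusted p = 0.000133). Of 29 vascular and growth factor genes 3 rose and 3 fell, with the endothelin receptor Ednra up by 0.28 ± 0.06 (adjusted p = 0.00629) and the angiotensin receptor Agtr1a down (-0.29 ± 0.06, adjusted p = 0.00467).

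Several genes with large falls were spread widely between libraries of one time. Zfp445, a zinc-finger gene, ran from 6.04 to 19.4 CPM at ZT12 and from 2.94 to 11.1 CPM at ZT15, and Slc8a1, the sodium-calcium exchanger, from 41.1 to 129 CPM and from 25.5 to 76.1 CPM. For both genes CEK ZT12 replicate 2 was the highest library, CEK ZT12 replicate 1 and CON ZT12 replicates 2 and 4 were among the next, and CON ZT15 replicate 1 was the highest at ZT15. The length slopes were 0.12 in CEK ZT12 replicates 1 and 2, 0.07 in CON ZT12 replicate 2 and 0.05 in CON ZT15 replicate 1, the highest of the 16, but 0.02 in CON ZT12 replicate 4, below CON ZT12 replicate 3 (0.03). The part of these slopes in the falls was not tested beyond the offset. Zfp445 fell by 1.21 ± 0.28 (adjusted p = 0.0126) and Slc8a1 by 1.09 ± 0.26 (adjusted p = 0.0164), with adjusted p of 0.008 and 0.0089 under the offset. Slc8a1 overlaps gene models on the opposite strand. Alg10b, Best3, Cacna2d2, Nt5c1a and Gpam, with falls of 0.82 to 1.33, likewise overlapped between the times. All 7 calls were lost in a fit of all 64 libraries, which shares the spread of the whole series, where Zfp445 had an adjusted p of 0.186 and Slc8a1 of 0.175. This was not particular to these genes. The same fit ended 70 of the 112 calls among the named genes, those of Hsp90aa1 and Cpt1a included.

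Of 38 genes of calcium handling, ion channels and excitation, 0 rose and 9 fell (23.7%), where 4.42% of all tested genes rose and 6.66% fell. The list's median was -0.13, and with the offset 1 rose and 7 fell. Kcnh2, a repolarizing potassium channel, fell by 0.29 ± 0.07 (adjusted p = 0.0213), and Cacna1g, a T-type calcium channel, by 0.48 ± 0.11 (adjusted p = 0.0129). The calcium channel subunit Cacnb2 fell by 0.30 ± 0.07 (adjusted p = 0.0103) but was not called with the offset (-0.13). The calcium release channel Ryr2 (-0.28, adjusted p = 0.0763) did not pass. Of 32 adrenergic and cyclic AMP genes 1 rose and 5 fell (15.6%), or 2 rose and 3 fell with the offset. Pde3a, a phosphodiesterase, was among the falls (-0.36 ± 0.08, adjusted p = 0.0101). Of 35 sarcomere genes 2 rose and 2 fell (5.71% each), near the shares of all tested genes. An unadjusted p under 0.05 was found for 17 of them, and DESeq2 called 6 higher and 4 lower. Without the 2 libraries that stood apart 6 rose and 4 fell, where 1027 of all 15402 tested genes rose and 1407 fell. Of 34 matrix and TGF-beta genes 0 rose and 2 fell (5.88%, near the share of all tested genes), but only 7 lay above 0. The list's median was -0.17, or -0.13 with the offset. An unadjusted p under 0.05 was found for 15, against 5014 of all 15259 tested genes. DESeq2 called 0 higher and 7 lower, against 1209 and 1351 of all tested genes. In ZT18 against ZT9 0 were higher and 9 lower, where 3.02% of all tested genes were lower. The 2 falls were Timp3 (-0.79 ± 0.15, adjusted p = 0.00453) and Col15a1 (-0.30 ± 0.09, adjusted p = 0.0438). The call of Col15a1 ended in 19 of 30 alternatives, among them the offset, voom, the replicate block and 12 of 16 single-library omissions.

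The stress lists gave few calls. Of 33 endoplasmic reticulum chaperone genes 3 rose and 1 fell, of 32 ATF4 genes 3 rose and 2 fell, of 32 NRF2 genes 3 rose and 0 fell, of 37 immediate early genes 3 rose and 2 fell, and of 49 ribosome biogenesis genes 3 rose and 2 fell. The share higher was 9.09% for the endoplasmic reticulum list and 9.38% for the ATF4 and NRF2 lists, against 4.42% of all tested genes. With the offset 6 endoplasmic reticulum genes rose and 0 fell, and DESeq2 called 8 of them and 7 NRF2 genes higher. Atf4 itself ran from 50.1 to 67.999 CPM at ZT12 and from 70.3 to 83.8 CPM at ZT15, without overlap, and rose by 0.30 ± 0.06 (adjusted p = 0.00858). Chac1, a glutathione-degrading ATF4 target, fell instead by 1.08 ± 0.16 (adjusted p = 0.00065), from a median of 5.29 to 2.66 CPM. Gsta3, a glutathione transferase, rose by 0.63 ± 0.10 (adjusted p = 0.000992). Of 42 nuclear genes of oxidative phosphorylation 0 were called by edgeR, although 41 of the 42 lay above 0 with a median of 0.24 (0.16 with the offset). At an unadjusted p under 0.05 there were 27, DESeq2 called 11 higher, and without the 2 libraries that stood apart 6 rose. Their median exon length was 2101 bases. Of 11 mitochondrial genome transcripts 1 fell, mt-Nd5 (-0.38 ± 0.11, adjusted p = 0.0389), and of 28 genes of branched-chain amino acid and ketone use 1 fell. The latter list had 3 rises and 0 falls with the offset, and 0 rises and 3 falls without the 2 libraries that stood apart. The call of mt-Nd5 ended in 11 of 30 alternatives. Of 29 clock output genes 7 rose and 8 fell, several of which are named above under other lists.

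**Figure D5:**
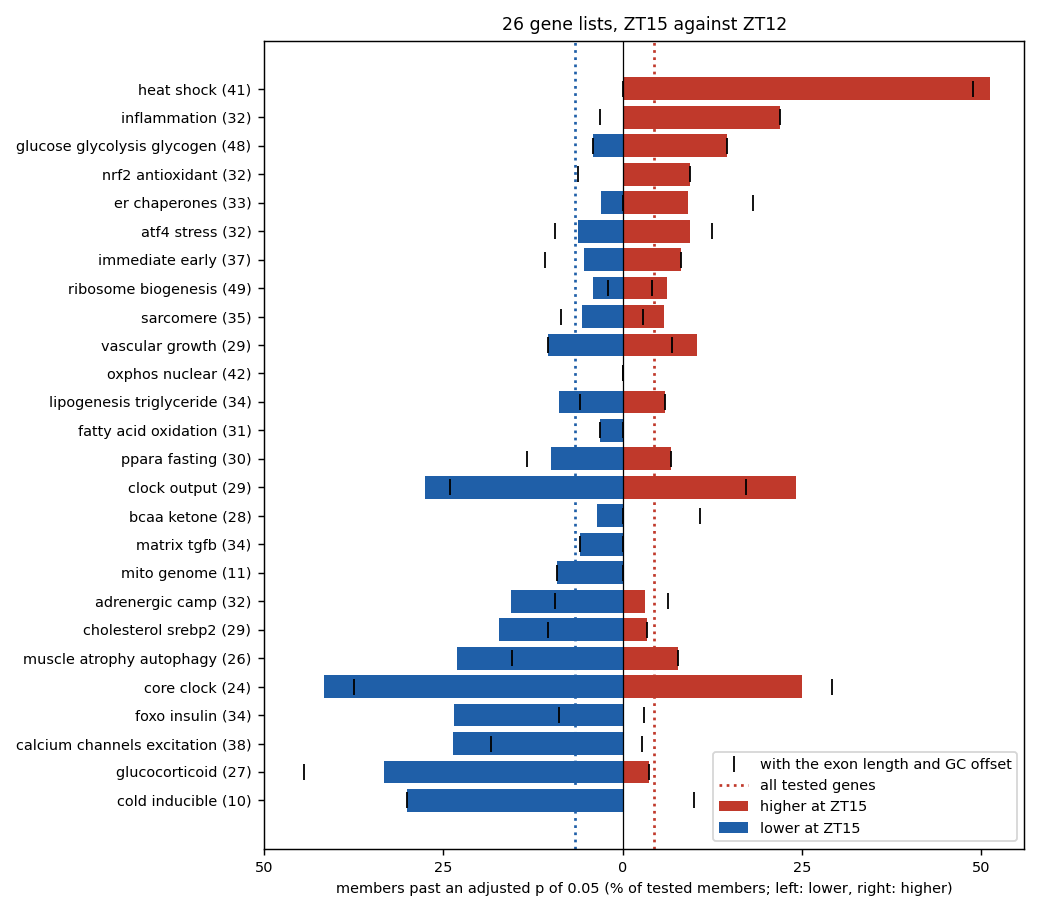
Percent of tested members (x axis) called lower (blue, left) or higher (red, right) at ZT15 for 26 gene lists, with the number tested in brackets. Black ticks give the percent with the exon length and GC offset, and dotted lines the percent over all tested genes, 4.42 higher and 6.66 lower. Heat shock genes had only rises, 21 of 41, and glucocorticoid genes 9 falls of 27.

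All 1691 called genes had one sign in CON and CEK, as the average over genotypes favours such genes. Tested within genotype, with 4 libraries a side, 39 genes rose (0.256%) and 49 fell (0.321%) in CON, and 120 rose (0.786%) and 204 fell (1.34%) in CEK. The order of the genotypes turned with voom (254 rises and 346 falls in CON, 34 and 53 in CEK) and without the 2 libraries that stood apart (80 and 94 in CON, 25 and 53 in CEK). Over the called genes the median step of the rises was 0.26 in CON and 0.33 in CEK, and of the falls -0.29 in CON and -0.39 in CEK. No gene had a different step in CEK and CON past the threshold in edgeR (0 of 15259, or 0%). At an unadjusted p under 0.05 there were 423 genes (2.77% of those tested), and DESeq2 called 0.

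Hearts collected at ZT9 and ZT18 share no library with the step and lie on either side of it. In ZT18 against ZT9, 441 of 15419 genes were higher (2.86%) and 466 lower (3.02%). Of 673 genes that rose from ZT12 to ZT15 and were tested there, 179 were called higher and 0 lower, with a median of 0.31. Of 1014 genes that fell, 180 were called lower and 0 higher, with a median of -0.27. CEK ZT18 replicate 1 and CON ZT18 replicate 3 stood apart on the first principal component of the 64 libraries, and without them the counts were 151 and 176, with medians of 0.15 and -0.17. Of the 41 heat shock genes 12 were higher and 0 lower, or 11 and 0 without those libraries. Nr1d1 had a step of -3.41 over these 9 h (adjusted p = 1.3e-09), beside -1.16 over the 3 h, and Dbp of -3.39 (adjusted p = 1e-10), beside -1.09. Arntl was higher by 2.91 (adjusted p = 3.4e-08). The glucocorticoid list had 5 members higher and 3 lower in ZT18 against ZT9, with a median of 0.18, beside 1 rise, 9 falls and a median of -0.28 over the 3 h. Fam107a (-0.00), Klf15 (-0.08) and Klf9 (-0.18) of the glucocorticoid list did not pass in ZT18 against ZT9, and neither did Ccl2 (0.65, adjusted p = 0.17) or C1qa (0.33, adjusted p = 0.32).

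The step into dark was also set against the step into light, ZT3 against ZT0. The difference of the steps was higher for 288 of 15950 genes (1.81%) and lower for 331 (2.08%), and it shares its ZT12 and ZT15 libraries with the values above. CEK ZT00 replicate 4 had the highest score of all libraries of the study on the first principal component (97.7). Without it 367 of 16112 genes were higher and 408 lower. The values below include that library. Genes were ranked by this difference only if it was called and they were also called in ZT15 against ZT12. They also had a mean log2 CPM of 1 or more and no provisional symbol. Among them the largest positive differences were Hspa1b (2.57 ± 0.58, adjusted p = 0.00901), Rtn4r (1.95 ± 0.29, adjusted p = 0.00011), Nppb (1.82 ± 0.48, adjusted p = 0.03), G0s2 and Dnajb1. In the light step Dnajb1 fell by 1.02 ± 0.16 (adjusted p = 0.00038) and G0s2 by 0.92 ± 0.16 (adjusted p = 0.0017), which is the opposite of their rise in the dark step. Of the genes so ranked, Dbp had the largest negative difference (-2.89 ± 0.33, adjusted p = 2.6e-06), with a rise of 1.80 ± 0.24 in the light step. Chac1 rose by 1.70 ± 0.19 in the light step and Nr1d1 by 1.34 ± 0.17, and both fell in the dark step. Per2 had nearly equal steps, -0.32 in dark and -0.37 in light, with a difference of 0.05 ± 0.22 (adjusted p = 0.91), and Hlf had steps of -0.49 and -0.33. Of the 674 genes that rose into dark, 0 rose and 37 fell into light, and of the 1017 that fell into dark, 39 rose and 3 fell into light, where 126 of 15950 genes rose and 119 fell in all.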

How the data were processed

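Ventricular RNA was sequenced with the SMARTER mRNA-Seq kit from 1.3 ug of total RNA, per the labels. The deposited table holds whole-number counts of reads per gene, made by the authors with bcl2fastq 2.18.0.12, STAR 2.6.1d and HTSeq 0.11.1 on GRCm38, per the submitters' processing notes. The sources used here give no annotation release, strand setting or read filter. Of 48795 gene rows, 48435 matched GENCODE M21 by ID. Summary rows of the counter stayed out of library sizes and tests.

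Counts were fitted with edgeR 4.0.16 (R 4.3.3) as a quasi-likelihood model with time and genotype, after filterByExpr (minimum count 10) and TMM scaling, and p-values were adjusted by Benjamini-Hochberg over all tested genes at a threshold of 0.05. Fold changes are log2 with SE; CPM values use TMM library sizes, and log2 CPM a prior count of 2. Steps within genotype, their difference, dark against light steps and ZT18 against ZT9 were fitted likewise. The exon length and GC offset, a smooth per library of the deviation of log2 CPM on both, was added after the data were seen, as was leaving out 2 libraries. Other alternatives were DESeq2 1.42.0, voom (limma 3.58.1), RLE scaling, 2 other filters, a replicate block, a fit of all 64 libraries, covariates and each library left out. Fits were tested on simulated data. Within groups, 24 pairs of libraries differed by at least 4.63 times sampling noise, so none is a second copy. The labels call the replicates biological but do not say that they are separate animals; if they are not, p-values measure only the spread between samples.

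The comparison and gene lists were chosen with earlier results of these data known. Named genes are Nfil3, all core clock genes and the 4 smallest p of each other pathway list. Added were the 15 largest called rises and 15 largest called falls with a mean log2 CPM of 1 or more. For these a gene needed one sign in both genotypes and no provisional symbol. The 5 largest dark against light differences each way came from genes called there and in the main step. These also had a mean log2 CPM of 1 or more and no provisional symbol. Others, such as Hspa1a, Zbtb16, Il1b, Pck1 and the C1q genes, were chosen after their values were seen. A few members of the lists are counted but not reported here by name.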

Additional observations from a re-analysis of the deposited data

Results flagged for a closer look

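In 8 of 208 groups of 4 libraries, 1 library lay far from the others of its group by Dixon's test at 95%, which by chance marks about 1 group in 20. CEK ZT12 replicate 1 had 12.6% of reads in no feature and 12.5% ambiguous reads, against group medians of 3.62% and 3.20%. CON ZT15 replicate 1 had 6.53% in no feature and 5.92% ambiguous, against 3.35% and 3.34%. Itga8 was high in CEK ZT15 replicate 2, at 3.43 log2 CPM against a group median of 1.76. Per2 was low in CEK ZT12 replicate 3, at 5.16 against 5.50, and Tef was low in CON ZT15 replicate 4, at 7.66 against 7.77. Csnk1e was high in CON ZT12 replicate 1, at 5.56 against 5.42.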

How the results depend on the processing

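Of 112 called genes among the 137 named, 41 kept their call and direction in every alternative run (up to 30 per gene) and none changed direction. A call ended for 70 in the fit of all 64 libraries, for 21 with the exon length and GC offset and for 36 on leaving out 1 library. Precision is limited by 4 libraries a group.

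Counts of calls moved more, and the cause was not tested. For the step over both genotypes, 674 rises became 1209 with DESeq2, 125 in the fit of 64 libraries, 1060 with voom, 1446 with the submitter number as a covariate and 1027 without the 2 libraries with many reads outside genes. The 1017 falls became 133 in the fit of 64 libraries and 1715 with the submitter number. That covariate is whether the number in a sample's description is above 40. The slope of log2 CPM on GC content ran from -0.94 (CEK ZT15 replicate 1) to -0.35 (CON ZT12 replicate 1) in libraries numbered up to 40. Above 40 it ran from -0.22 (CEK ZT12 replicate 3) to 0.92 (CON ZT15 replicate 2). The part of this split in the counts was not tested. Leaving out each library gave 309 to 1510 rises and 464 to 1970 falls. Rises moved by over 1.5 times without CEK ZT12 replicate 1 (421), 2 (387) or 3 (1165), CEK ZT15 replicate 1 (419), 3 (309) or 4 (363), CON ZT12 replicate 2 (317), or CON ZT15 replicate 1 (1510), 2 (360) or 4 (378). Falls did so without CEK ZT12 replicate 1 (592) or 2 (474), CEK ZT15 replicate 1 (610), 2 (666), 3 (468) or 4 (562), CON ZT12 replicate 2 (464), or CON ZT15 replicate 1 (1970), 2 (545) or 4 (581).

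In CON, rises and falls were 117 and 102 with DESeq2, 11 and 12 in the fit of 64, 254 and 346 with voom, 67 and 82 with the submitter number, 96 and 87 with the offset, 80 and 94 without the 2 libraries, 111 and 112 with both, and 88 and 79 with the replicate block and offset. Leaving out 1 library gave 14 to 59 rises and 19 to 60 falls. In CEK they were 627 and 740 with DESeq2, 275 and 479 with no filter, 7 and 4 in the fit of 64, 34 and 53 with voom, 261 and 516 with the atrial score, 990 and 980 with the submitter number, 25 and 53 without the 2 libraries, and 72 and 86 with the offset too. CEK rises were 230 with the offset and 184 with the replicate block and offset. Leaving out 1 library gave 17 to 1330 rises and 24 to 1334 falls in CEK. The difference between genotypes gave 2 higher and 7 lower with no filter, 4 lower in the fit of 64, and 0 on leaving out any library.

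Dark against light gave 150 higher and 209 lower with no filter, and 517 higher with voom, 182 without the 2 libraries and 470 with the replicate block and offset. Its range on leaving out 1 library was 194 to 376 higher and 220 to 441 lower. ZT18 against ZT9 gave 762 and 741 with DESeq2, 826 and 967 in the fit of 64, 928 and 990 with voom and 675 and 707 with the offset, and 272 higher with no filter and 693 higher with the replicate block and offset. Its range was 279 to 452 higher and 317 to 567 lower.

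Whether the replicate numbers pair the samples was not tested against chance. Over 24 pairs with one number the correlation of deviations ran from -0.30 to 0.44 (median 0.07, against -0.03 for other numbers). Of 16 libraries, 9 correlated best with their own number, although each was compared with more libraries of other numbers than of its own. With the replicate block, 754 genes rose and 1053 fell, against 674 and 1017 in the main fit.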
